A study of Mus musculus with 7 samples.

Results

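The 9 genes described here encode transcription factors of the trophoblast, the lineage that forms the placenta: Cdx2, Elf5, Gata2, Gata3, Tfap2a, Tfap2c, Hand1, Ascl2 and Tead4. They were taken by name, as factors known from textbooks for the specification or maintenance of this lineage in the mouse, and not by their values. They are 9 of the 29267 genes in the deposited RNA-Seq tables, and all 9 were found. RNA was measured in 7 libraries, 1 for each kind of cell, so there are no replicates and the spread between cultures is unknown.

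For 6 libraries the starting cells were embryonic fibroblasts (MEFs) of OG2 mice, whose Oct4GFP transgene is driven by the Oct4 promoter and lights up in pluripotent cells. All 6 received retroviruses for c-Myc, Klf4, Oct4 and Sox2. They were grown in mES medium, which contains fetal bovine serum, vitamin C and LIF, or in 5C medium. 5C medium is a serum-free DMEM/F12 base with N2, bFGF, vitamin C, LIF and β-mercaptoethanol. On day 15 Oct4GFP+ and Oct4GFP- cells were sorted by FACS from each medium. This gave 4 libraries named by medium and sort, such as mES-Oct4GFP+ or 5C-Oct4GFP-. 5C-Oct4GFP+ (naive) cells were then held in LIF with the inhibitors CHIR99021 and PD0325901, and 5C-Oct4GFP+ (primed) cells were induced with bFGF and activin A and maintained with CHIR99021 and IWR1. R1 ESCs-primed, from R1 embryonic stem cells that did not receive the retroviruses, were brought to the primed state in the same way on MEF feeders. The labels give 20 passages for the converted cells and R1 ESCs-primed and 0 for the sorted cells. The study's account of its conversion experiments speaks of days in the new medium, so the time that the converted cells spent there is uncertain. Reads of these 4 retroviral genes cannot be told from those of the endogenous genes, but none of the 9 factors was introduced. All samples are bulk RNA, in which fewer cells of a type and less RNA per cell cannot be told apart.

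In the mouse blastocyst, Tead4 acts in the outer cells with the coactivator Yap1 and switches on Cdx2 and Gata3, and Cdx2 opposes Oct4 there. Elf5, Eomes, Tfap2c and Cdx2 then maintain trophoblast stem cells, while Gata2, Gata3, Hand1 and Ascl2 act in placental cell types that arise from them. Several of the factors also work elsewhere: Tfap2c in germ cell precursors and in naive pluripotent cells, Cdx2 in the posterior embryo and gut, Gata2 in blood, Tfap2a in epidermis and neural crest, and Hand1 in heart and extraembryonic mesoderm.

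Expected counts, the number of reads that the program RSEM assigns to a gene, summed to between 6108252 and 11496615 per library. Levels are given as TPM, the authors' length-scaled measure of transcript abundance with the same sum in every library, which takes gene length into account. A single read on one of the 9 factors was worth between 0.0502 and 0.514 TPM, and between 45.6% and 51.0% of all genes had at least 1 TPM. Of the 15 pluripotency factors examined, between 13 and 15 had at least 1 TPM in every library except 5C-Oct4GFP+ (primed), with 9. Their median log2(TPM + 1) was 7.95 and 7.99 for the Oct4GFP+ cells from mES and 5C medium. For the Oct4GFP- cells it was 4.18 and 5.16. After naive conversion it was 7.87, after primed conversion 2.55, and for R1 ESCs-primed cells 3.33. At 2-fold on this scale, 12 of 15 were higher in Oct4GFP+ than Oct4GFP- cells in either medium. In mES medium 2 were lower, and in 5C medium 1. Of all genes with at least 1 TPM in either library, 17.9% were higher and 28.8% lower in mES medium. In 5C medium these shares were 8.45% and 22.6%. Oct4, Klf4 and Sox2, on this list, were also delivered by retrovirus. Summed over 17 fibroblast markers, including Col1a1 and Prrx1, the level was 22.86 TPM in the Oct4GFP+ cells from mES medium, 38.41 TPM in those from 5C medium and 23.02 TPM after naive conversion. It was 1312 TPM and 548.4 TPM in the Oct4GFP- cells from mES and 5C medium, 127.0 TPM after primed conversion and 331.1 TPM in R1 ESCs-primed cells. The sample labels name fibroblasts, but Prrx1, a defining fibroblast factor, was between 0.09 and 0.44 TPM in the first 3 of these libraries.

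The 9 factors were present at low to moderate levels and did not share one pattern. The number at 1 TPM or more was 6 in the Oct4GFP+ and 9 in the Oct4GFP- cells from mES medium, 4 in either kind from 5C medium, 6 after naive and 4 after primed conversion, and 6 in R1 ESCs-primed cells. mES-Oct4GFP- was thus the library in which every one of them reached that level, as did 50.5% of all genes there. For 5 factors, Elf5, Gata2, Gata3, Hand1 and Tead4, the highest level of all was also in mES-Oct4GFP- cells. Over all 17733 genes that reached 1 TPM anywhere, 25.3% had their highest level in mES-Oct4GFP- cells. Cdx2 and Ascl2 were highest in 5C-Oct4GFP+ (naive), Tfap2c in mES-Oct4GFP+ and Tfap2a in 5C-Oct4GFP- cells. No factor was highest in 5C-Oct4GFP+, 5C-Oct4GFP+ (primed) or R1 ESCs-primed cells, where only 9.62%, 10.7% and 10.9% of all genes had their highest level. Ratios below carry exact 95% Clopper-Pearson intervals from the counts, which cover the sampling of reads only. Libraries next to each other in the order of a factor's levels are called apart when that interval leaves out 1. The highest library of Gata3 was not apart from the next, 5C-Oct4GFP+ (primed), with an interval of 0.880 to 2.09. That of Ascl2 was not apart from 5C-Oct4GFP+, with 0.791 to 2.05.

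**Figure D1:**
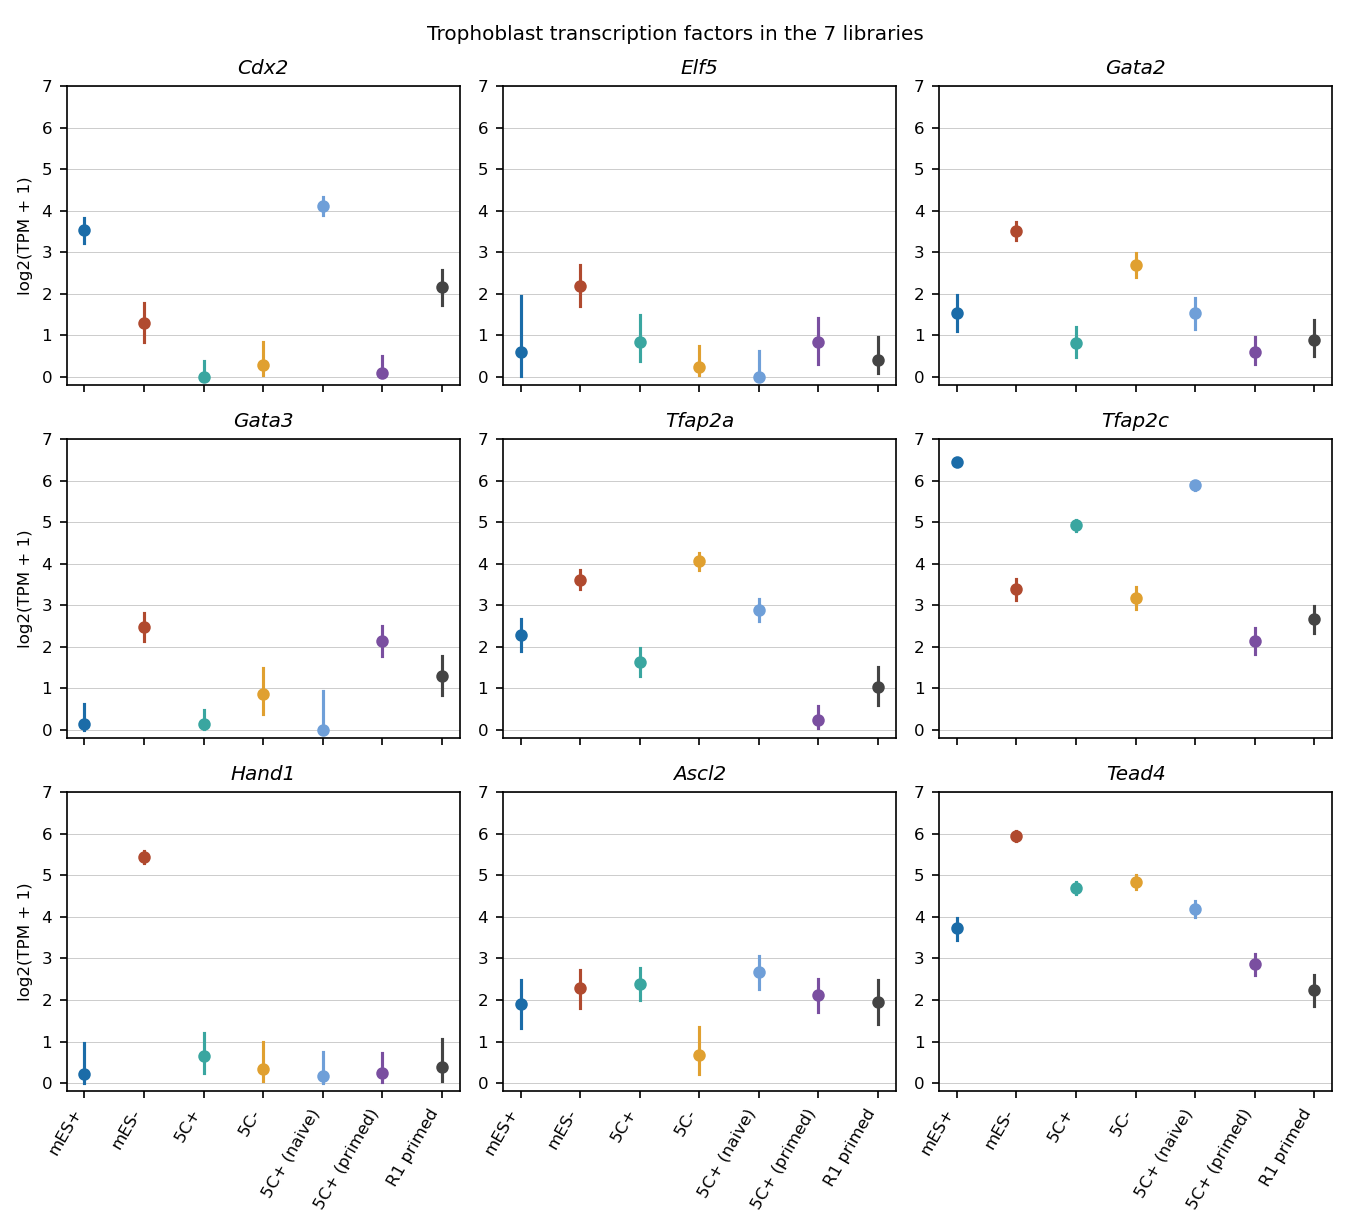
Level of each of the 9 factors, as log2(TPM + 1), in the 7 libraries (x axis: mES and 5C for the media, + and - for Oct4GFP). Points are single libraries and bars are 95% Poisson intervals of the read count. Hand1 stands at 42.59 TPM in mES-Oct4GFP- cells and below 1 TPM in the others, and Cdx2 is highest in mES-Oct4GFP+ and 5C-Oct4GFP+ (naive) cells.

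Tead4 (ENSMUSG00000030353, chr6:128224288-128300823, minus strand, GRCm38) encodes the DNA-binding partner of Yap1 and stands at the top of the trophectoderm pathway. Its level was 12.21 TPM in the Oct4GFP+ and 60.90 TPM in the Oct4GFP- cells from mES medium, 25.04 and 27.79 TPM in those from 5C medium in the same order, 17.21 TPM after naive and 6.26 TPM after primed conversion, and 3.70 TPM in R1 ESCs-primed cells. It was one of only 2 factors, with Tfap2c, above 1 TPM in all 7 libraries. Both primed libraries were the lowest, mES-Oct4GFP- the highest, and the only neighbours not apart were the 5C-Oct4GFP- and 5C-Oct4GFP+ cells. Tead4 was 4.99-fold (4.04 to 6.22) higher in mES-Oct4GFP- than in mES-Oct4GFP+ cells, and 2.19-fold (1.91 to 2.52) higher in mES-Oct4GFP- than in 5C-Oct4GFP- cells. Among the Oct4GFP+ cells the order of media was the other way, with 5C over mES by 2.05-fold (1.64 to 2.58). The other TEAD genes did not share the whole of this order of levels. Tead2 was highest in the primed libraries, with 374.5 TPM in 5C-Oct4GFP+ (primed), 338.6 TPM in R1 ESCs-primed and between 90.75 and 289.8 TPM elsewhere. Tead1 ranged from 23.00 to 50.67 TPM. Like Tead4 it was highest in mES-Oct4GFP- and lowest in both primed libraries, but mES-Oct4GFP+ was next to the highest, at 48.35 TPM. Tead3 ranged from 4.88 to 26.41 TPM, with its highest level in 5C-Oct4GFP- cells.

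The coactivator genes partner to Tead4 were measured in every library. Yap1 was between 92.24 and 139.4 TPM, and Wwtr1, which encodes the related coactivator TAZ, between 24.76 and 85.32 TPM, with its highest level in mES-Oct4GFP- cells. A list of 24 genes of the Hippo pathway and TEAD cofactors was compared between the Oct4GFP+ and Oct4GFP- cells from mES medium. In Oct4GFP+ cells 14 of 24 were at least 2-fold lower and 0 higher, against 28.8% lower and 17.9% higher of all genes. The median difference of log2(TPM + 1) was -1.20, against -0.15 over all genes tested. Ccn1, a well-known YAP target, was 15.21 TPM in mES-Oct4GFP+ and 837.2 TPM in mES-Oct4GFP- cells. In the Oct4GFP+ and Oct4GFP- cells from 5C medium it was 303.9 and 962.3 TPM. Ccn2, another such target, was 27.88 and 391.7 TPM in the mES libraries and 178.4 and 282.6 TPM in the 5C libraries, in the same order. Amot encodes a scaffold that holds YAP at cell junctions. It was 363.8 TPM after primed conversion and 220.2 TPM in R1 ESCs-primed cells, where Tead4 was lowest, but also 156.7 TPM in mES-Oct4GFP- cells, where Tead4 was highest. In 5C-Oct4GFP- cells Amot was 17.62 TPM, and in the other 3 libraries between 1.26 and 2.67 TPM. Ccn1 and Ccn2 are also expressed in fibroblasts, whose markers summed to 1312 TPM in mES-Oct4GFP- and 548.4 TPM in 5C-Oct4GFP- cells, and their part in these values was not tested.

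Cdx2 (ENSMUSG00000029646, chr5:147300805-147307270, minus strand) encodes the homeodomain factor that defines the trophectoderm. It was 10.57 TPM in the Oct4GFP+ and 1.45 TPM in the Oct4GFP- cells from mES medium, 0 and 0.21 TPM in those from 5C medium in the same order, 16.26 TPM after naive and 0.07 TPM after primed conversion, and 3.45 TPM in R1 ESCs-primed cells. Levels among the Oct4GFP+ cells were uneven, with no read in the 5C library, where 3 reads would have been 0.2402 TPM, and 168 reads after conversion in naive medium. Set against 3 reads in 5C-Oct4GFP+ cells, the floor used for a library without any, the ratio was 44.0 for mES-Oct4GFP+ and 67.7 for 5C-Oct4GFP+ (naive) cells. The exact intervals, which also hold the sampling of the higher library, had lower limits of 34.9 and 54.4. The primed libraries differed from each other too: R1 ESCs-primed cells had 29 reads and 5C-Oct4GFP+ (primed) cells had 1, a ratio of 47.4 (7.86 to 1940). Of the neighbours in this order, 2 pairs were not apart, those among 5C-Oct4GFP-, 5C-Oct4GFP+ (primed) and 5C-Oct4GFP+ cells, which had between 0 and 2 reads.

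Cdx1, the nearest relative of Cdx2, was high in the same pair of libraries and almost absent elsewhere. It reached 147.6 TPM in mES-Oct4GFP+ cells and 69.31 TPM after naive conversion, and at most 0.73 TPM in the other 5 libraries. Cdx4 was at most 0.28 TPM anywhere. The markers of primitive streak and posterior embryo, where Cdx genes also act, were examined beside Cdx2. Of 20 genes, 12 were tested after naive conversion against the 5C-Oct4GFP+ cells. At 2-fold 6 were higher and 1 lower, against 10.0% higher and 17.5% lower of all genes. The median difference over all 20, tested or not, was 0.08, against -0.10 for all genes tested. Cdx1 is among those 6.

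RefSeq promoter windows of GRCm38.p6, 250 bases before to 50 bases after a start site, were available for 6 of the factors, with 9 windows in all. A set of 4 motifs was searched on both strands: GGAATG, bound by TEAD factors, AGATAA, bound by GATA factors, GCCNNNGGC, bound by AP-2 factors and its own reverse complement, and the octamer ATGCAAAT, bound by Oct4. Of the windows that hold a match, 3 are printed, in 5′ to 3′ direction on the strand of the gene, because Cdx2 was the factor furthest above 5C-Oct4GFP+ cells after naive conversion, Gata3 the one after primed conversion, and the Gata2 window holds a match to both the TEAD and the AP-2 motif. Capitals mark the matches.
Cdx2, chr5:147307200-147307499, minus strand: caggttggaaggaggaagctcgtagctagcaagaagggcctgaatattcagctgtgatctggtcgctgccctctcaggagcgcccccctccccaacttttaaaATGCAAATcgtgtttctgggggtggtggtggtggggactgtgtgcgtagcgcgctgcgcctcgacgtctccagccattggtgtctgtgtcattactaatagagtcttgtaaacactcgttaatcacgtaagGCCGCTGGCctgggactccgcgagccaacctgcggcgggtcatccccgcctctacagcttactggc
Gata3, chr2:9878551-9878850, minus strand: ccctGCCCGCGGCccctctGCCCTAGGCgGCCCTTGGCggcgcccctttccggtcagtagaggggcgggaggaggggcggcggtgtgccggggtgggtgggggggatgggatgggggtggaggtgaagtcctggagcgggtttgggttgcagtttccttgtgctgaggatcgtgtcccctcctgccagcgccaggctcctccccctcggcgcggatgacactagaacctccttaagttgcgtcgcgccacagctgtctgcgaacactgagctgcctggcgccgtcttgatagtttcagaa
Gata2, chr6:88198414-88198713, plus strand: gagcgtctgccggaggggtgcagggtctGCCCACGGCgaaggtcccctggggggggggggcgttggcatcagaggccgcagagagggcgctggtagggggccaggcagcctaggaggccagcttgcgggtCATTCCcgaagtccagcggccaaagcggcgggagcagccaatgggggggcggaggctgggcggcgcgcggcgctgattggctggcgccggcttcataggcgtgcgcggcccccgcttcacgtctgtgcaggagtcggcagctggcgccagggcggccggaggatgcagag
In the Cdx2 window the octamer begins 147 bases before the start site and the AP-2 motif 16 bases before it. In the Gata3 window 3 AP-2 matches that do not overlap begin 246, 231 and 221 bases before the start site. In the Gata2 window the AP-2 match begins 222 bases and the TEAD match 120 bases before it. A further TEAD match lies in an Elf5 window, 173 bases before the start site.

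Of the 9 windows, 1 held the octamer, 2 the TEAD motif, 3 the AP-2 motif and 0 the GATA motif. Over all 32851 windows of the same length the shares were 1.74% for the octamer, 14.7% for TEAD, 16.6% for AP-2 and 11.2% for GATA. These matches describe letters in the window, and binding was not measured. The ratio of observed to expected CpG was above the median of all windows (0.384) in 8 of the 9, the exception being the Elf5 window that starts at chr2:103411848, with 0.110. The GC content of the 9 windows ranged from 46.3% in a Tfap2a window to 73.7% in the Gata2 window printed above, against a median of 52.7%.

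Gata2 (ENSMUSG00000015053, chr6:88193891-88207032, plus strand) and Gata3 (ENSMUSG00000015619, chr2:9857078-9890034, minus strand) encode zinc finger factors that overlap in function in the trophoblast. Gata2 was 1.90 TPM in the Oct4GFP+ and 10.37 TPM in the Oct4GFP- cells from mES medium, 0.74 and 5.42 TPM in those from 5C medium in the same order, 1.87 TPM after naive and 0.50 TPM after primed conversion, and 0.85 TPM in R1 ESCs-primed cells. The Oct4GFP- libraries thus held the highest levels in either medium. The Oct4GFP- to Oct4GFP+ ratio was 7.28 (4.0 to 14.3) in 5C medium. In mES medium the same ratio was 5.47, and 3 pairs of neighbours in the order were not apart.

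Gata3 was 0.10 TPM in the Oct4GFP+ and 4.59 TPM in the Oct4GFP- cells from mES medium, 0.11 and 0.82 TPM in those from 5C medium in the same order, 0 TPM after naive and 3.39 TPM after primed conversion, and 1.44 TPM in R1 ESCs-primed cells. The transcript length that RSEM used for Gata3 ranged from 914.67 to 3215 bases between libraries, and in 5C-Oct4GFP+ (naive) cells, with the shortest, 3 reads would have been 0.7549 TPM. Unlike Gata2, it was above 1 TPM in both primed libraries, and it was 30.4-fold (7.89 to 260) higher in 5C-Oct4GFP+ (primed) than in 5C-Oct4GFP+ cells. This ratio compares 40 reads at a length of 1947 bases with 2 reads at 3215 bases. Between the mES libraries it was 48.0-fold (8.25 to 1930) higher in Oct4GFP- cells, a ratio that rests on few reads in mES-Oct4GFP+ cells. Gata3 overlaps the antisense gene Gm13256, whose reads cannot be told apart without strand information. On its own strand it overlaps 9230102O04Rik, whose reads in shared exons could not be told apart by strand either. These genes were given at most 0.36 and 0.35 TPM in any library. Its relative Gata6, a marker of endoderm, was also high in the primed libraries, with 28.83 TPM in 5C-Oct4GFP+ (primed) and 18.07 TPM in R1 ESCs-primed cells against 0.56 TPM in 5C-Oct4GFP+ cells. Gata4 was highest in mES-Oct4GFP- cells, with 32.99 TPM and at most 7.57 TPM elsewhere. Gata1 was at most 5.30 TPM and Gata5 at most 1.06 TPM.

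Elf5 (ENSMUSG00000027186, chr2:103411688-103450989, plus strand) encodes an ETS factor that keeps trophoblast stem cells in their lineage. It was 0.51 TPM in the Oct4GFP+ and 3.57 TPM in the Oct4GFP- cells from mES medium, 0.77 and 0.18 TPM in those from 5C medium in the same order, 0 TPM after naive and 0.77 TPM after primed conversion, and 0.32 TPM in R1 ESCs-primed cells. Only mES-Oct4GFP- cells passed 1 TPM, the 5C-Oct4GFP+ (naive) cells had no read, with 3 reads worth 0.4244 TPM, and among the other libraries no neighbours in the order were apart. The transcript length that RSEM used for Elf5 ranged from 658 to 2643.1 bases between libraries, so its levels, like those of Gata3, rest on different isoform estimates. Related epithelial ETS genes were more abundant. Ehf was 58.74 and 17.64 TPM in the Oct4GFP- cells from mES and 5C medium and at most 4.01 TPM in the others. Elf3 had another order, with 175.1 TPM in mES-Oct4GFP+ cells, 97.23 TPM after naive conversion and 67.02 TPM in mES-Oct4GFP- cells. Elf1 ranged from 4.20 to 42.10 TPM, with its highest level in mES-Oct4GFP- cells.

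The AP-2 genes Tfap2a (ENSMUSG00000021359, chr13:40715302-40738376, minus strand) and Tfap2c (ENSMUSG00000028640, chr2:172549593-172558622, plus strand) differed in order. Tfap2c was 86.89 TPM in the Oct4GFP+ and 9.42 TPM in the Oct4GFP- cells from mES medium, 29.36 and 8.09 TPM in those from 5C medium in the same order, 58.36 TPM after naive and 3.39 TPM after primed conversion, and 5.36 TPM in R1 ESCs-primed cells. It was the most abundant of the 9 in mES-Oct4GFP+, 5C-Oct4GFP+ and 5C-Oct4GFP+ (naive) cells, and at a low level also in R1 ESCs-primed cells. Only the neighbouring Oct4GFP- libraries were not apart. Tfap2c was higher in Oct4GFP+ than in Oct4GFP- cells by 9.23-fold (7.54 to 11.4) in mES medium and by 3.63-fold (2.90 to 4.59) in 5C medium. Among Oct4GFP+ cells, mES was 2.96-fold (2.63 to 3.33) above 5C. Conversion went with opposite differences: 5C-Oct4GFP+ (naive) cells were 1.99-fold (1.76 to 2.24) above, and 5C-Oct4GFP+ (primed) cells 8.65-fold (6.50 to 11.7) below, the 5C-Oct4GFP+ cells.

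Tfap2c is also used in germ cell precursors, and the germ cell list, of which it is a member, was examined beside it. The 11 genes summed to 1046 and 212.5 TPM in the Oct4GFP+ cells from mES and 5C medium and 767.4 TPM after naive conversion, and to between 40.07 and 58.77 TPM in the other 4 libraries. Dppa3, a gene shared by germ cells and naive pluripotent cells, was 493.8 and 71.25 TPM in these Oct4GFP+ cells and 388.5 TPM after naive conversion, the same order as Tfap2c. It was at most 4.32 TPM in the others.

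Tfap2a was 3.88 TPM in the Oct4GFP+ and 11.29 TPM in the Oct4GFP- cells from mES medium, 2.08 and 15.68 TPM in those from 5C medium in the same order, 6.40 TPM after naive and 0.17 TPM after primed conversion, and 1.03 TPM in R1 ESCs-primed cells. All neighbours in this order were apart, which held for none of the other factors. In 5C medium it was 7.54-fold (5.24 to 11.2) higher in Oct4GFP- than in Oct4GFP+ cells, the reverse of Tfap2c. Like Tfap2c, it was higher than in 5C-Oct4GFP+ cells after naive conversion, by 3.08-fold (2.05 to 4.71). After primed conversion it was lower, with a ratio of 5C-Oct4GFP+ to 5C-Oct4GFP+ (primed) cells of 12.2 (3.84 to 61.8). Antisense genes Gm47061, Gm26688 and Gm47067 overlap Tfap2a, so part of its reads may belong to them. Of the other AP-2 genes, Tfap2b was 4.03 TPM in 5C-Oct4GFP- cells and at most 0.48 TPM elsewhere, Tfap2d at most 0.69 TPM and Tfap2e at most 0.39 TPM.

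Tfap2a is active in epidermis, and a list of 21 epidermal and surface ectoderm markers summed to 3165 TPM in mES-Oct4GFP- and 927.7 TPM in 5C-Oct4GFP- cells. In the others the sum was 127.4 and 485.1 TPM in the Oct4GFP+ cells from mES and 5C medium, 118.4 TPM after naive and 1039 TPM after primed conversion, and 487.0 TPM in R1 ESCs-primed cells. Much of this sum is the keratins Krt8, Krt18 and Krt19, which trophoblast also expresses, and Krt8 was 748.5 TPM in mES-Oct4GFP- and 221.0 TPM in 5C-Oct4GFP- cells. Of the 19 markers that reached 1 TPM anywhere, 14 (73.7%) were highest in mES-Oct4GFP- cells, against 25.3% of all genes. Only 3 (15.8%) were highest in 5C-Oct4GFP- cells, where Tfap2a was highest, against 17.2% of all genes. The part of epidermal cells in the levels of Tfap2a was not tested.

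Hand1 (ENSMUSG00000037335, chr11:57828705-57832818, minus strand) encodes a helix-loop-helix factor needed for trophoblast giant cells and for extraembryonic mesoderm. It was 0.17 TPM in the Oct4GFP+ and 42.59 TPM in the Oct4GFP- cells from mES medium, 0.56 and 0.27 TPM in those from 5C medium in the same order, 0.12 TPM after naive and 0.18 TPM after primed conversion, and 0.30 TPM in R1 ESCs-primed cells. With 344 reads in mES-Oct4GFP- against 2 in 5C-Oct4GFP- cells, the ratio was 157 (43.3 to 1310). Against mES-Oct4GFP+ cells it was 246 (43.8 to 9730). The other 6 libraries lay below 1 TPM with none of their neighbours apart. Hand2, its close relative in heart and limb, was highest in the same library, with 14.05 TPM, but 5C-Oct4GFP- cells also had 2.93 TPM.

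Ascl2 (ENSMUSG00000009248, chr7:142966829-142969264, minus strand) encodes a helix-loop-helix factor of the spongiotrophoblast and lies in an imprinted cluster, where the maternal copy is the active one. It was 2.74 TPM in the Oct4GFP+ and 3.85 TPM in the Oct4GFP- cells from mES medium, 4.23 and 0.61 TPM in those from 5C medium in the same order, 5.39 TPM after naive and 3.32 TPM after primed conversion, and 2.88 TPM in R1 ESCs-primed cells. Its levels were the most even of the 9, and the library apart from its neighbour was 5C-Oct4GFP-, 6.92-fold (2.48 to 26.7) below 5C-Oct4GFP+ cells. Of 17 other genes listed from the same imprinted region of chromosome 7, 15 were tested between 5C-Oct4GFP- and mES-Oct4GFP- cells. At 2-fold 0 were higher and 4 lower, against 9.68% and 10.1% of all genes. The median difference over all 17, tested or not, was -0.11, against 0.03 for all genes tested. Of the 20 family relatives of the factors, 13 were tested in the Oct4GFP- cells of the 5C against the mES medium. Of these, 6 were lower and 2 higher at 2-fold. The median difference over all 20, tested or not, was 0.04, against 0.03 for all genes tested.

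The libraries were then compared for all 9 factors together. Differences are those of log2(TPM + 1), on which the change of low genes is understated. A gene was tested when it had at least 1 TPM in either library, and counted as higher or lower at 2-fold on that scale. A gene that reached 1 TPM in only 1 of the libraries was tested through that library, and could not be called higher in the other. The comparisons share libraries, so their counts are not independent. Only 5C-Oct4GFP+ (naive) and R1 ESCs-primed were used in a single comparison.

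Between the media, 5C-Oct4GFP+ against mES-Oct4GFP+ cells gave 6 factors tested, 0 higher and 2 lower, Cdx2 (-3.53) and Tfap2c (-1.53). Over all 15196 genes tested, 13.7% were higher and 13.5% lower. Tead4, at 0.98, lay just inside the 2-fold limit. The 6 factors tested had a median difference of -0.70, against -0.06 for all genes tested. Over all 9, with the 3 below the minimum included, it was 0.01. In the Oct4GFP- cells more factors were lower: 5C against mES gave 9 tested, 0 higher and 6 lower, against 9.68% higher and 10.1% lower of all genes. The 6 were Cdx2 (-1.02), Elf5 (-1.95), Gata3 (-1.62), Hand1 (-5.10), Ascl2 (-1.59) and Tead4 (-1.10), so Cdx2 and Tead4 lay just outside the limit. All of these except Tead4 were below 1 TPM in 5C-Oct4GFP- cells. They were tested only through their mES-Oct4GFP- level and could not have come out higher. The median of the 9 was -1.10, against 0.03 for all genes. The exceptions were the AP-2 genes Tfap2a (0.44) and Tfap2c (-0.20) and Gata2 (-0.82).

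Within each medium, the Oct4GFP+ cells were set against the Oct4GFP- cells. In mES medium 9 factors were tested, of which 2 were higher in Oct4GFP+ cells, Tfap2c (3.08) and Cdx2 (2.24), and 6 were lower, among them Hand1 (-5.22), Gata3 (-2.35) and Tead4 (-2.23). The shares of all genes were 17.9% higher and 28.8% lower, and the medians were -1.60 for the 9 factors and -0.15 for all genes. Elf5, Gata3 and Hand1 were below 1 TPM in mES-Oct4GFP+ cells, so they could not have been called higher there. In 5C medium 5 were tested: Tfap2c (1.74) and Ascl2 (1.70) were higher and Tfap2a (-2.44) and Gata2 (-1.88) lower, against 8.45% higher and 22.6% lower of all genes. Thus Tfap2c was on the Oct4GFP+ side and Gata2 and Tfap2a on the Oct4GFP- side in both media. For Hand1, Gata3, Elf5, Cdx2 and Tead4 a 2-fold difference was found in mES medium. In 5C medium Tead4 was at -0.14, which became 0.01 with median-ratio rescaling between libraries. The others were below 1 TPM in both 5C libraries. Of these, Gata3 was still 7.36-fold (1.32 to 74.5) higher in Oct4GFP- cells, on 6 reads against 2. The intervals of Hand1, Elf5 and Cdx2 held 1. Fibroblast markers separated the same libraries, with 16 of 16 tested lower in Oct4GFP+ cells in mES medium and 14 of 15 in 5C medium, and their part in the differences of the factors was not tested.

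Conversion of 5C-Oct4GFP+ cells was compared in either direction. In naive medium 6 factors were tested, of which 2 were higher, Cdx2 (4.11) and Tfap2a (1.26), and 0 lower, against 10.0% higher and 17.5% lower of all genes. Tfap2c, at 0.97, lay just inside the limit. In primed medium 5 were tested: Gata3 (1.98) was higher, and Tfap2c (-2.79), Tead4 (-1.84) and Tfap2a (-1.40) were lower, against 13.7% higher and 16.1% lower of all genes. For the primed cells against R1 ESCs-primed cells there were 6 tested, 0 higher and 1 lower, Cdx2 (-2.06), against 2.30% higher and 5.09% lower of all genes. The fibroblast markers that summed to 127.0 TPM in 5C-Oct4GFP+ (primed) and 331.1 TPM in R1 ESCs-primed cells were at 38.41 TPM in 5C-Oct4GFP+ cells, and their part in these differences was not tested.

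**Figure D2:**
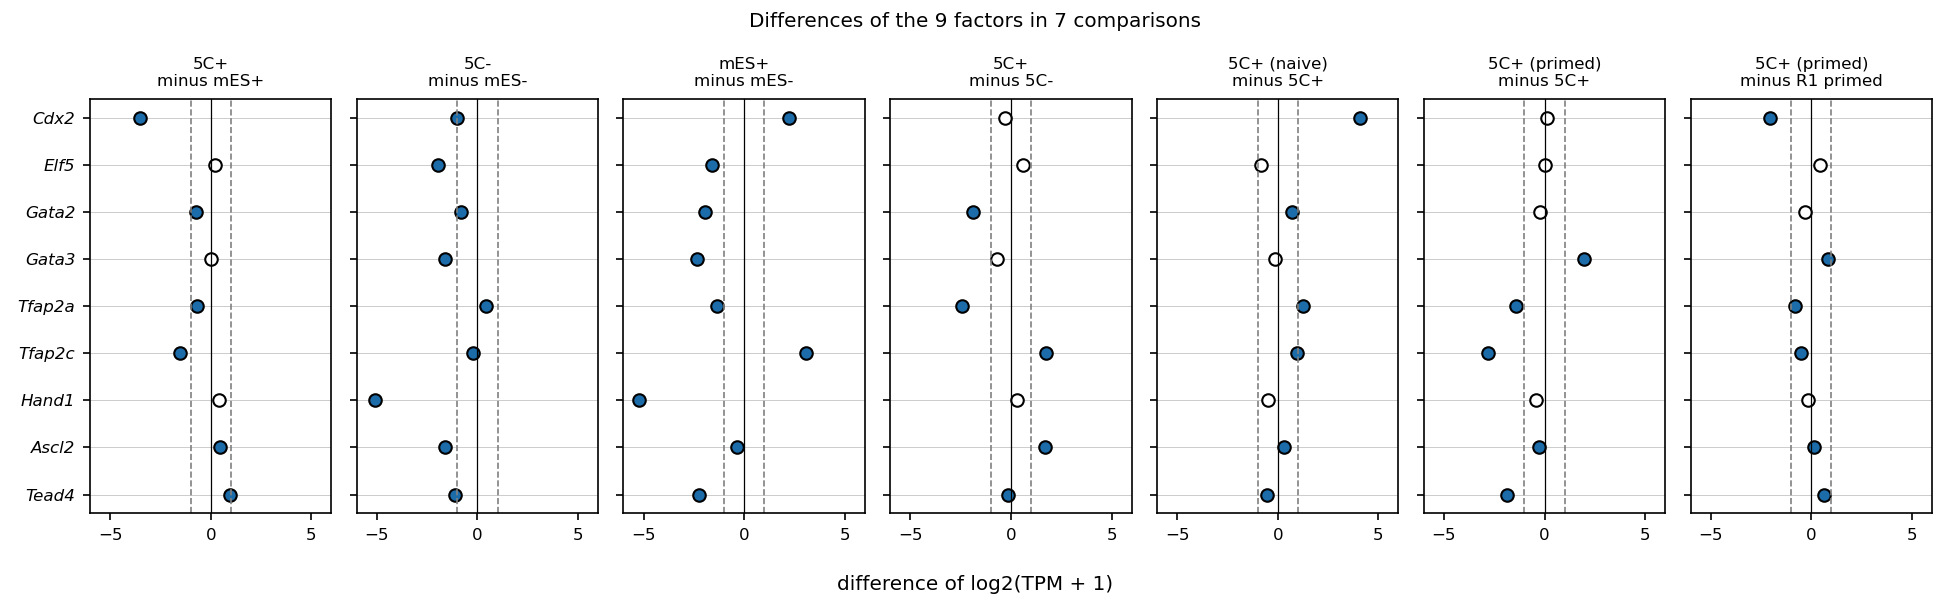
Difference of log2(TPM + 1) (x axis) for each of the 9 factors (y axis) in the 7 comparisons, first library minus second. Filled points had at least 1 TPM in either library, open points did not, and dashed lines mark 2-fold. In 5C-Oct4GFP- minus mES-Oct4GFP- cells 6 of 9 points lie left of the lower line and 0 right of the upper one. Of these 6, all except Tead4 were below 1 TPM in 5C-Oct4GFP- cells.

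Whether genes of differentiated trophoblast went with the factors was examined on a list of 29 genes. At 1 TPM or more there were 16 in mES-Oct4GFP- and 7 in mES-Oct4GFP+ cells, 9 in the Oct4GFP+ and 10 in the Oct4GFP- cells from 5C medium, 7 after naive conversion, 7 after primed conversion and 8 in R1 ESCs-primed cells. Of all genes, 50.5% were at that level in mES-Oct4GFP- cells, and between 45.6% and 51.0% in any library. The count of 16 of 29 is thus near the share of all genes. Of the 16 that reached 1 TPM anywhere, 12 were highest in mES-Oct4GFP- cells, where 25.3% of all genes had their highest level. In 5C-Oct4GFP- against mES-Oct4GFP- cells 13 of 16 tested were lower and 0 higher, against 10.1% lower and 9.68% higher of all genes. The median difference over all 29, tested or not, was -0.78, against 0.03 for all genes tested. In mES-Oct4GFP+ against mES-Oct4GFP- cells 12 of 16 were lower and 1 higher, against 28.8% lower and 17.9% higher of all genes. The median over all 29 was -0.44, against -0.15 for all genes tested. In both comparisons all 16 tested genes had at least 1 TPM in mES-Oct4GFP- cells. Those below 1 TPM in the other library could therefore not be called higher there.

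The genes of that list that were named for their level or their range were not confined to 1 library. Slc2a3, a glucose transporter of placenta and many other cells, was between 163.3 and 754.8 TPM in all 7. Peg10, an imprinted gene required for the placenta, was 319.6 TPM in mES-Oct4GFP-, 109.5 TPM in R1 ESCs-primed and between 4.48 and 43.56 TPM in the others. Plac8 was 36.84 TPM in mES-Oct4GFP- and 17.82 TPM in 5C-Oct4GFP- cells. Some other genes of the list, named here after their values were seen, were at low levels in mES-Oct4GFP- cells. Prl2c2 and Prl2c3, members of the prolactin family made by trophoblast giant cells, had 21 reads (6.11 TPM) and 36 reads (10.44 TPM) there. In the other libraries Prl2c2 had no read and Prl2c3 at most 3. Reads of these near-identical genes may be divided wrongly between them. Plac1, a placental membrane protein, was 11.56 TPM in mES-Oct4GFP- and 1.41 TPM in 5C-Oct4GFP- cells, and Prl3d1, a hormone of giant cells, had 5 reads in mES-Oct4GFP- cells and 0 elsewhere. In the same library 7 of the 29 genes were listed at 0, among them Prl3b1, Prl4a1, Tpbpb and Gcm1, and Tpbpa was 0.52 TPM. The fibroblast and epidermal markers were also highest there (1312 and 3165 TPM).

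**Figure D3:**
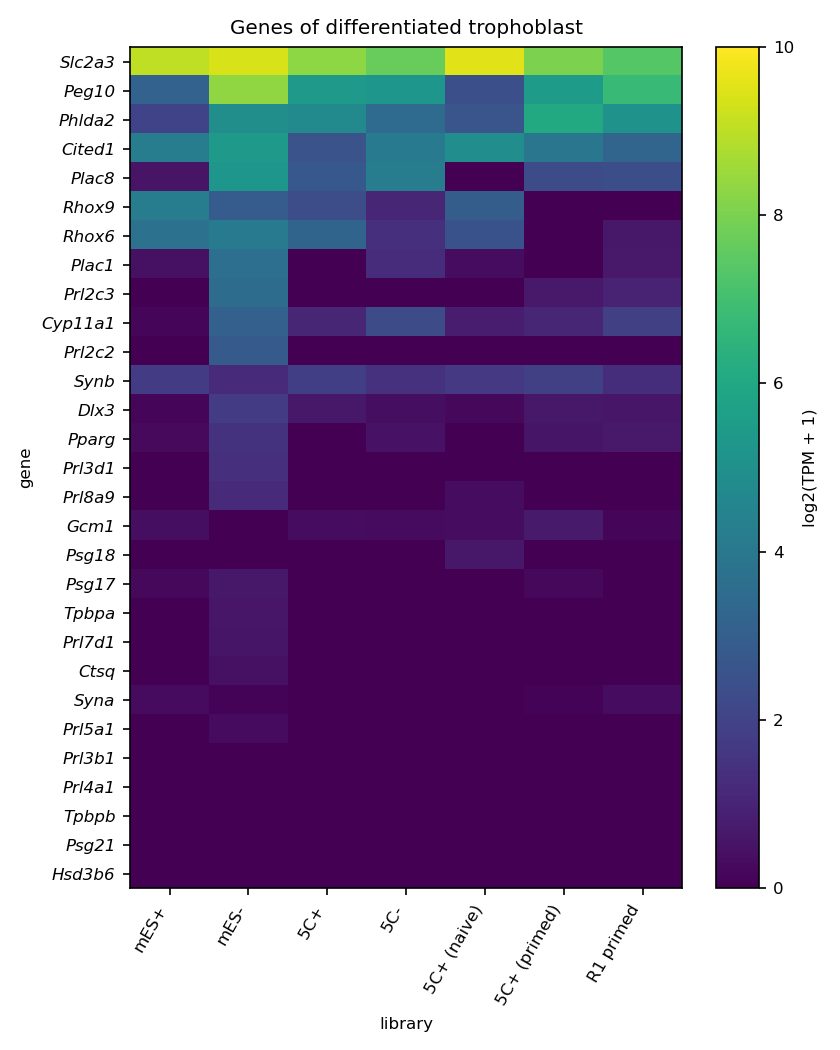
Level of 29 genes of differentiated trophoblast (rows, ordered by highest level) in the 7 libraries (columns), as log2(TPM + 1) by colour. The column of mES-Oct4GFP- cells holds 16 genes at 1 TPM or more, against 7 to 10 in the other columns. Of all genes, 50.5% were at that level in mES-Oct4GFP- cells.

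Of 19 genes known from trophoblast stem cells, between 14 and 18 were at 1 TPM or more in each library. Several of them, like Tfap2c among the factors above, are shared with pluripotent cells. Esrrb, needed in trophoblast and embryonic stem cells alike, was 246.1 and 229.7 TPM in the Oct4GFP+ cells from mES and 5C medium, 206.6 TPM after naive conversion and at most 15.26 TPM in the rest. Eomes, a trophoblast stem cell factor that is also a gene of the primitive streak, was 81.21 TPM in 5C-Oct4GFP+ (primed) and 115.0 TPM in R1 ESCs-primed cells and at most 10.34 TPM in the rest. Neither followed the levels of Elf5 or Hand1. Lgals3 did have its highest level, 795.3 TPM, in mES-Oct4GFP- cells. In mES-Oct4GFP+ against mES-Oct4GFP- cells 10 of 18 tested genes of this list were lower and 2 higher, against 28.8% and 17.9% of all genes. The median over all 19 was -1.33, against -0.15 for all genes tested. In 5C-Oct4GFP- against mES-Oct4GFP- cells 7 of 18 were lower and 4 higher, against 10.1% and 9.68% of all genes.

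How alike the factors were to each other was described by the mean absolute difference of their centred log2(TPM + 1) levels over the 7 libraries. The most alike were Gata2 and Tead4 (0.50), Gata2 and Tfap2a (0.55) and Elf5 and Gata3 (0.57). The least alike were Gata3 and Tfap2c (2.21). Both AP-2 genes lay 1.43 apart and both GATA genes 0.92, so members of 1 family were not the most alike.

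For the 7 factors that reached 5 TPM in some library, the same measure was taken to 13566 other genes at that level. Nearest to Hand1 were Ttr (0.131), which encodes the thyroid hormone carrier transthyretin, Pbp2 (0.131) and Alox12b (0.142). All 3 were highest in mES-Oct4GFP- cells. Nearest to Tfap2c were Fam178b (0.220), BC067074 (0.230) and the connexin gene Gjb5 (0.234). For Tead4 they were Cltb (0.184), Cryzl2 (0.189) and Dpp6 (0.222), and for Gata2 Plin2 (0.169), Mllt3 (0.172) and Card14 (0.185). Ascl2 was nearest to Cstb (0.230), Tuba4a (0.243) and Gm9803 (0.277), and Tfap2a to Gm37416 (0.208), Maml2 (0.245) and Zfp46 (0.278). Cdx2 had the most distant neighbours, Lpl (0.482), which encodes lipoprotein lipase, Ngfr (0.502) and Slc22a13 (0.511). With 7 libraries as points, these distances are descriptions of the libraries at hand.

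**Figure D4:**
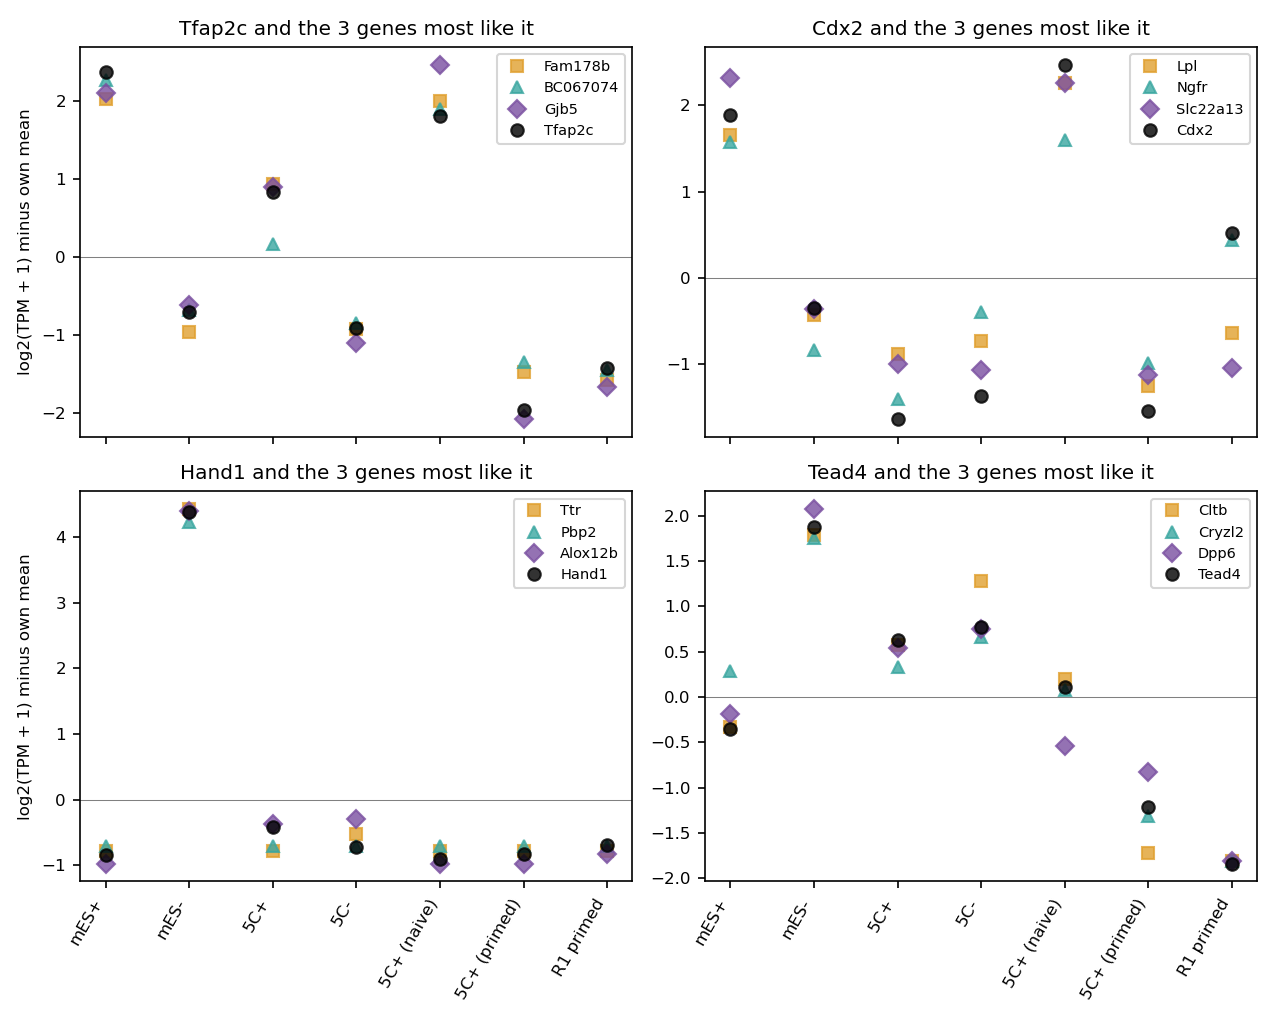
Level of Tfap2c, Cdx2, Hand1 and Tead4 (black circles) and of the 3 genes nearest to each (coloured symbols) in the 7 libraries, as log2(TPM + 1) minus the gene's own mean over the libraries. Hand1 and its neighbours stand high in mES-Oct4GFP- cells alone, at distances of 0.131 to 0.142, and Cdx2 lies further from its neighbours, at 0.482 to 0.511.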

How the data were processed

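RNA-Seq of 7 libraries was used, each a group of its own. The authors prepared TruSeq v2 libraries, which do not mark the strand, sequenced them on an Illumina MiSeq and quantified them with RSEM. The submitters' processing notes name Bowtie, RSEM and mm10, the UCSC name of GRCm38. Their versions are not given in the sources used here. The deposited expected counts are estimated reads per Ensembl gene and were rounded to whole numbers for intervals. The deposited TPM values are counts per effective length scaled by the authors to 1 sum per library, and the deposited FPKM values, which the authors scaled to mapped fragments, served as an alternative.

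The 9 factors, the 11 lists and the tests were chosen with earlier results of these data known. GENCODE M21 gave symbols for 28756 of the 29267 Ensembl identifiers, and 190 of 191 list genes were found. Differences were taken on log2(TPM + 1), for genes with at least 1 TPM in either library. With 1 library per group no test was run, and exact Clopper-Pearson intervals at 95% compare libraries, not conditions. For a gene without reads 3 counts served as the floor. The genes named were the 9 factors, their family relatives, the 3 genes nearest to each factor among those at 5 TPM in some library, and, from each list, the 2 highest genes and the 2 with the widest range of levels. Other genes were named after their values were seen. These are Yap1, Wwtr1, Eomes, Prl2c2, Prl2c3, Prl3d1, Plac1, Prl3b1, Prl4a1, Tpbpa, Tpbpb and Gcm1. Promoter sequences are RefSeq (GRCm38.p6). The scripts were tested on simulated data. They ran in Python 3.11.15 with scipy 1.17.1, pandas 2.3.3, numpy 2.4.6 and, for figures, matplotlib 3.10.9. The 4 alternatives were a pseudocount of 0.1, a minimum of 5 TPM, median-ratio rescaling and FPKM in place of TPM.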

Additional observations from a re-analysis of the deposited data

Results flagged for a closer look

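Tfap2a differed in opposite directions in the 2 conversions of 5C-Oct4GFP+ cells. The difference of log2(TPM + 1) was 1.26 in 5C-Oct4GFP+ (naive) and -1.40 in 5C-Oct4GFP+ (primed) cells, 2.66 apart. With 1 library for each kind of cell this difference was not tested, and both values share the 5C-Oct4GFP+ library.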

How the results depend on the processing

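No paired analysis was possible because each group is a single library and the labels give no shared replicate numbers. Of 56 counts of factors under the 4 alternatives, 48 stayed within 1.5 times the value above and 8 moved, and of 189 differences of single factors 25 moved by more than their interval. None of those at 2-fold or more changed direction. Of the others, Tead4 in 5C-Oct4GFP+ against 5C-Oct4GFP- cells went from -0.14 to 0.01 with median-ratio rescaling, and Elf5 in 5C-Oct4GFP+ (primed) against 5C-Oct4GFP+ cells from 0.00 to -0.02. With a pseudocount of 0.1, and with median-ratio rescaling, 1 factor (Tead4) was higher in the 5C than in the mES library of Oct4GFP+ cells. With a pseudocount of 0.1, 1 factor (Gata3) was higher and 2 (Cdx2, Tfap2a) were lower in 5C-Oct4GFP+ (primed) than in R1 ESCs-primed cells. With a minimum of 5 TPM, 2 factors (Hand1, Tead4) were lower in the 5C than in the mES library of Oct4GFP- cells, 1 (Tfap2c) was higher in 5C-Oct4GFP+ than in 5C-Oct4GFP- cells, 0 were higher in 5C-Oct4GFP+ (primed) than in 5C-Oct4GFP+ cells and 0 were lower than in R1 ESCs-primed cells, because fewer factors reach that level. Rescaling moved the median of all genes by over 0.1 in 5C-Oct4GFP+ against 5C-Oct4GFP- cells, from -0.25 to -0.10. Depth limits the factors below 1 TPM, which rest on few reads.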
